A study of Canis lupus familiaris with 6 samples.

Results

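The lower part of glycolysis was examined through 7 enzyme genes, ALDOC, TPI1, GAPDH, PGK1, ENO1, ENO2 and LDHB, in CMM10, a cell line from a malignant melanoma of a dog. The genes were taken by symbol from 29822 annotated genes of the CanFam3.1 dog genome build, of which 17892 carry a symbol. RNA was compared between 3 libraries of CMM10 cells kept under hypoxia and 3 libraries of CMM10 cells kept under normoxia. All libraries come from this 1 line, and the labels state neither an oxygen level nor a duration. The reads assigned to genes numbered 27272709 to 28804337 in hypoxia libraries and 23196647 to 27012866 in normoxia libraries.

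Glycolysis breaks glucose down to pyruvate in the cytosol, and its lower part carries the steps on 3-carbon sugars that return ATP and reduced NAD. In the absence of oxygen, lactate dehydrogenase turns pyruvate into lactate and so regenerates the NAD that GAPDH needs. In mammals, hypoxia-inducible transcription factors are known to raise many genes of this pathway, and tumour cells often use it even with oxygen present.

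Transcripts of 6 of the 7 enzymes were higher under hypoxia and those of LDHB were lower. The rises spanned 2.10-fold for ENO2 to 8.80-fold for ALDOC, and LDHB was at 0.733 of its normoxia level. Across all 15397 genes tested, 24.5% were called higher and 24.4% lower at an adjusted p below 0.05, and 4.81% were called higher with a log2 change over 1, as were the 6 enzymes. All 7 genes passed the filter on low counts. Hypoxia and normoxia values overlapped in none of the 7 genes. Among all tested genes the groups were apart in 27.8% with hypoxia higher and in 27.5% with hypoxia lower. The enzymes' median log2 change was 2.03, against 0.00096 over all genes tested. Over all genes 3778 were higher and 3761 lower, so that 50.1% of the calls were rises. Without TMM factors, 3076 were higher and 4862 lower (38.8% rises), and the enzymes again gave 6 higher and 1 lower. A change is given as the log2 ratio of hypoxia to normoxia with its SE, from edgeR's quasi-likelihood test on gene reads. A level is given in TPM, a share of all transcripts that is scaled by exon length. Nothing in the labels says whether replicates came from separate cultures, so the p-values measure only the spread between these libraries, which may be technical.

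**Figure D1:**
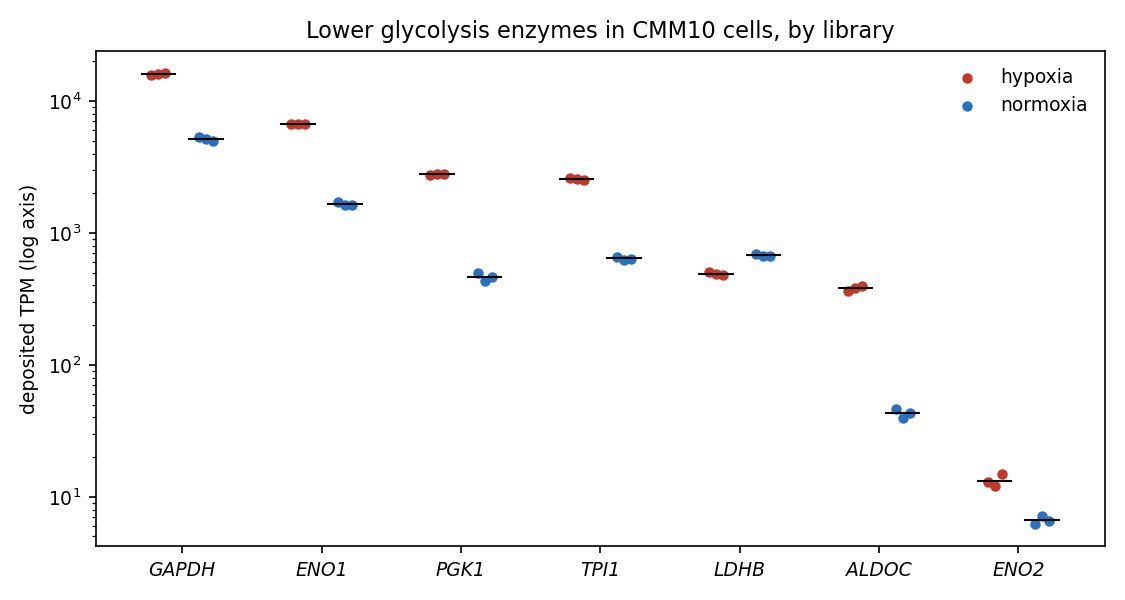
Deposited TPM of the 7 enzymes on a log axis, with a point for each library (hypoxia left, normoxia right of each pair) and a line at the mean of 3 libraries. The hypoxia points lie above the normoxia points for every enzyme except LDHB, where they lie below.

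ALDOC encodes the aldolase isoform best known from brain, and aldolases split fructose bisphosphate into the 3-carbon sugars. Its model lies on the minus strand of chromosome 9 from 42778637 to 42782479. ALDOC measured 361.8, 381.6 and 397.0 TPM in the hypoxia libraries, against 46.5, 39.4 and 43.4 TPM in the normoxia libraries. Every hypoxia value was thus far above every normoxia value, and the change was the largest of the 7 (3.14 ± 0.049, adjusted p = 7.82e-31). It ranked 47 of 15397 tested genes by size of rise. By level, ALDOC held rank 386 of all genes under hypoxia and rank 4179 under normoxia.

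TPI1 encodes triosephosphate isomerase, which converts the 2 products of aldolase into each other. It lies on the minus strand of chromosome 27 from 38154519 to 38158137. TPI1 measured 2593, 2582 and 2524 TPM under hypoxia, against 661.3, 626.7 and 640.0 TPM under normoxia. The change was 2.03 ± 0.034 (adjusted p = 3.90e-30), and the libraries of each group lay close together.

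GAPDH encodes glyceraldehyde-3-phosphate dehydrogenase, which makes reduced NAD, and it was the most abundant of the 7 transcripts in every library. Its model spans 38468889 to 38472385 on the minus strand of chromosome 27. The TPM of GAPDH was 15862.7, 15992 and 16234 in hypoxia libraries, against 5383, 5179 and 5000.1 in normoxia libraries. The lowest hypoxia value was far above the highest normoxia value, and the log2 change was 1.65 ± 0.035 (adjusted p = 9.55e-28). GAPDH stood at rank 2 by TPM of all genes under hypoxia and at rank 10 under normoxia.

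PGK1 encodes phosphoglycerate kinase, the enzyme of the earlier ATP-forming step. It lies on the plus strand of chromosome X from 60374754 to 60423947. Levels of PGK1 were 2772, 2786 and 2818 TPM under hypoxia and 494.8, 433.7 and 460.6 TPM under normoxia. With 2.54 ± 0.037 (adjusted p = 1.83e-31), PGK1 had the next largest change after ALDOC. It stood at rank 21 by TPM under hypoxia and at rank 311 under normoxia.

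Enolases convert phosphoglycerate into phosphoenolpyruvate, and mammals have a widespread form encoded by ENO1 and a form known from neurons encoded by ENO2. ENO1 (chromosome 5, minus strand, 62300808 to 62304093) measured 6641, 6691 and 6672 TPM in hypoxia libraries, against 1713, 1643 and 1622 TPM in normoxia libraries. The change was 2.03 ± 0.035 (adjusted p = 3.90e-30), and ENO1 stood at rank 7 under hypoxia and rank 66 under normoxia. ENO2 (chromosome 27, minus strand, 38119413 to 38129182) measured 12.9, 12.02 and 14.9 TPM in hypoxia libraries, against 6.26, 7.14 and 6.58 TPM in normoxia libraries. ENO2 was the lowest of the 7 in each library, and its groups also lay apart (1.07 ± 0.083, adjusted p = 1.97e-12).

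The fold of ENO2 was smaller than that of ENO1, and the log2 ratio of ENO2 to ENO1 in CPM, gene reads scaled to library size, was -6.53 ± 0.16 under hypoxia and -5.56 ± 0.11 under normoxia. The ENO2 share of the TPM of both enolases was 0.199% ± 0.023 under hypoxia and 0.400% ± 0.035 under normoxia (SD, n = 3 each). A two-sided exact permutation test gave p = 0.1 for the ratio and for the share, which is as low as 3 against 3 libraries can reach. The shares did not overlap between the groups: the highest under hypoxia was 0.224% and the lowest under normoxia 0.364%. These shares rest on the annotated exon lengths, 969 bases for ENO1 and 4318 bases over 8 annotated transcripts for ENO2.

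LDHB encodes the heart-type subunit of lactate dehydrogenase, and enzyme rich in this subunit is known to favour the oxidation of lactate to pyruvate. It lies on the plus strand of chromosome 27 from 25470665 to 25492920. LDHB measured 503.6, 488.9 and 481.1 TPM under hypoxia, against 691.8, 671.3 and 673.5 TPM under normoxia. All hypoxia values were below all normoxia values, and the change was -0.45 ± 0.035 (adjusted p = 1.67e-12). The partner subunit LDHA was not analysed here, since no row carries its symbol, nor were ALDOA, PGAM1 and PKM of the same pathway.

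By size of change the order was ALDOC, PGK1, ENO1, TPI1, GAPDH, ENO2 and LDHB. Between neighbours in this order, the log2 ratio of their CPM was compared between the conditions. For ENO1 over TPI1 the groups overlapped: their log2 ratio was 0.66 ± 0.024 under hypoxia and 0.65 ± 0.024 under normoxia (SD, n = 3 each, two-sided exact permutation p = 0.7), so no difference was detectable. For the other 5 pairs of neighbours the ratios of the groups did not overlap, each with an exact permutation p of 0.1, the smallest possible, or 0.12 adjusted over the 6 pairs. The order came from these same libraries, which largely fixed the sign of each difference. These p-values are therefore no separate test of the order. The smallest of these 5 differences was that between TPI1 and GAPDH (0.37 log2), and the largest was between ENO2 and LDHB (1.52 log2).

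The place of LDHB in the order of levels differed between the conditions. In deposited TPM the order under hypoxia was GAPDH, ENO1, PGK1, TPI1, LDHB, ALDOC and ENO2, and no neighbours overlapped. LDHB lay below PGK1 in every hypoxia library and above it in every normoxia library, and this also held when levels were computed from uniquely mapped exon reads per kilobase. Its order against TPI1 and ALDOC depended on reads that also map elsewhere, which are part of LDHB but hardly of the others. In deposited TPM under normoxia, the lowest LDHB value, 671.3, lay above the highest TPI1 value, 661.3. From unique reads LDHB was instead below TPI1 in all 3 normoxia libraries, with 548.8, 529.9 and 536.6 TPM for LDHB and 703.2, 667.9 and 678.9 TPM for TPI1. Under hypoxia, unique reads gave LDHB 398.7, 388.4 and 382.3 TPM and ALDOC 386.2, 407.1 and 423.0 TPM. These overlapped, and LDHB was the higher in 1 of the 3 libraries.

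Together the 7 genes held 2.89% ± 0.020 of all TPM under hypoxia and 0.868% ± 0.028 under normoxia (SD, n = 3 each, two-sided exact permutation p = 0.1, the smallest possible). The sum was 28747 to 29141 TPM in hypoxia libraries and 8447 to 8996 TPM in normoxia libraries, a 3.33-fold difference. GAPDH gave 53.0% of the summed gain of the 6 genes that rose, ENO1 24.5%, PGK1 11.4%, TPI1 9.41% and ALDOC 1.65%. ENO2 gave 0.032%. The part of GAPDH within the sum of the 7 was 55.4% ± 0.28 under hypoxia and 59.8% ± 0.52 under normoxia (exact permutation p = 0.1). LDHB made up 1.70% of the sum under hypoxia and 7.82% under normoxia. All these parts rest on deposited TPM, which include reads of GAPDH and LDHB that also map elsewhere. From unique exon reads GAPDH had 11970 to 12301 TPM in hypoxia libraries and 3829 to 4060 TPM in normoxia libraries. The summed difference of the 7 was then 18301 TPM, against 20260 in deposited TPM. The part of each gene was not computed from unique reads. TPM give shares of the sequenced RNA, so they do not give the amount of enzyme RNA per cell. In these bulk samples a change in all cells and a change in part of the cells cannot be told apart.

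**Figure D2:**
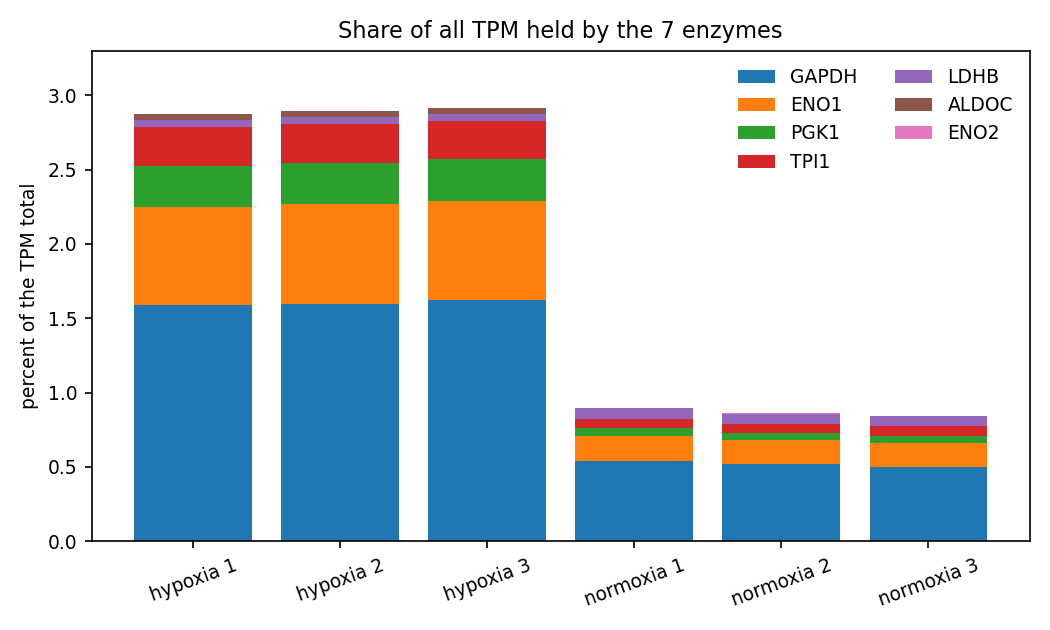
Stacked bars of the percent of the TPM total held by each of the 7 enzymes, with a bar for each library. The hypoxia bars reach 2.87% to 2.91% and the normoxia bars 0.845% to 0.900%, with GAPDH the largest piece of each.

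GAPDH is widely used as a reference gene for scaling in RT-qPCR, so it was set beside a list of 17 other genes used that way, of which 13 were tested. Of these, 3 were higher, 5 were lower and 5 were not called, beside 24.5% higher and 24.4% lower over all genes tested. The median log2 change of the 13 was -0.03. Without hypoxia replicate 2 the 8 calls became 5. The 3 with the largest changes were the transferrin receptor TFRC (1.07 ± 0.038), the purine salvage enzyme HPRT1 (0.48 ± 0.040) and the RNA-binding protein gene HNRNPH1 (-0.20 ± 0.032). None of the 13 had a change as large as that of GAPDH, and 12 of them had an absolute log2 change under 0.5. Without TMM factors 2 of the 13 were higher and 7 lower, and TUBB took the other sign without being called. The actin gene ACTB had 1680 ± 23.0 CPM under hypoxia and 1717 ± 30.2 CPM under normoxia (SD, n = 3 each), a log2 change of -0.03 ± 0.031 that did not pass the test (adjusted p = 0.429). Without TMM factors ACTB was called lower (-0.098).

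Taken as a ratio to GAPDH, ENO2 was lower under hypoxia, with a log2 ratio of -7.92 ± 0.14 against -7.34 ± 0.11 under normoxia (SD, n = 3 each, two-sided exact permutation p = 0.1). LDHB per GAPDH had a log2 ratio of -4.87 ± 0.046 under hypoxia and -2.77 ± 0.037 under normoxia, a difference of -2.10. ALDOC, PGK1, ENO1 and TPI1 were higher per GAPDH, by 1.49, 0.89, 0.38 and 0.37 log2. Of the 3778 genes called higher, 3488 had a smaller log2 change than GAPDH and 289 a larger one.

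**Figure D3:**
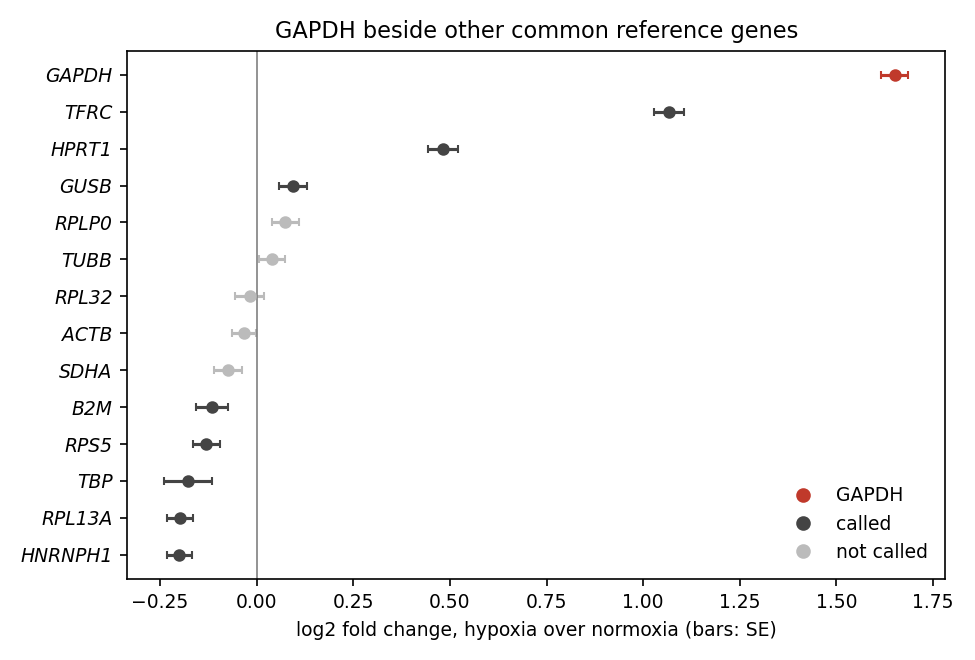
Log2 fold changes of hypoxia over normoxia for GAPDH and 13 other common reference genes, with bars for the SE of the fit to 3 libraries per group. GAPDH lies at 1.65, to the right of TFRC at 1.07 and HPRT1 at 0.48, and the other 11 genes lie between -0.20 and 0.09.

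The files split each gene's reads into exon and intron reads, and intron reads of polyadenylated libraries come partly from unspliced transcripts. Intron reads alone also put the 6 genes higher and LDHB lower. In that test, 18.7% of the 13858 genes tested were higher and 15.7% lower. The intron change was 2.21 ± 0.14 for TPI1, 2.11 ± 0.068 for ENO1, 1.62 ± 0.049 for GAPDH and -0.50 ± 0.073 for LDHB, set beside exon changes of 2.03, 2.04, 1.66 and -0.43 for these genes. ENO2 intron reads, almost none of them uniquely mapped, gave 1.29 ± 0.17.

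Exon and intron changes differed in ALDOC and PGK1. ALDOC had 105, 139 and 117 intron reads in hypoxia libraries, against 31, 30 and 28 in normoxia libraries, a rise of 1.94 ± 0.22, while its exon reads rose by 3.18 ± 0.049. In a single fit to exon and intron reads, the exon change of ALDOC exceeded its intron change by 1.23 ± 0.19 log2 (adjusted p = 7.17e-06). Introns held 1.59% ± 0.20 of ALDOC reads under hypoxia and 3.68% ± 0.20 under normoxia (SD, n = 3 each, exact permutation p = 0.1).

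For PGK1 the excess was 0.28 ± 0.052 log2 (adjusted p = 1.89e-04), with exon reads up by 2.63 ± 0.035 and intron reads by 2.35 ± 0.045. PGK1 intron reads were many, with 19014 to 19682 in hypoxia libraries and 3439 to 3772 in normoxia libraries. In that fit 2.51% of 15002 genes were called with a larger exon change and 2.09% with a larger intron change. TPI1 (-0.17 ± 0.12), GAPDH (0.05 ± 0.057), ENO1 (-0.06 ± 0.066), ENO2 (-0.27 ± 0.19) and LDHB (0.07 ± 0.072) did not pass, with adjusted p of 0.551 to 0.770. The share of exon reads that crossed an exon-exon junction gave exact permutation p of 0.2 to 0.9 in the 7 genes (two-sided, n = 3 each). GAPDH, for example, had 86.6% ± 0.16 of such reads under hypoxia and 86.5% ± 0.29 under normoxia (exact permutation p = 0.9).

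**Figure D4:**
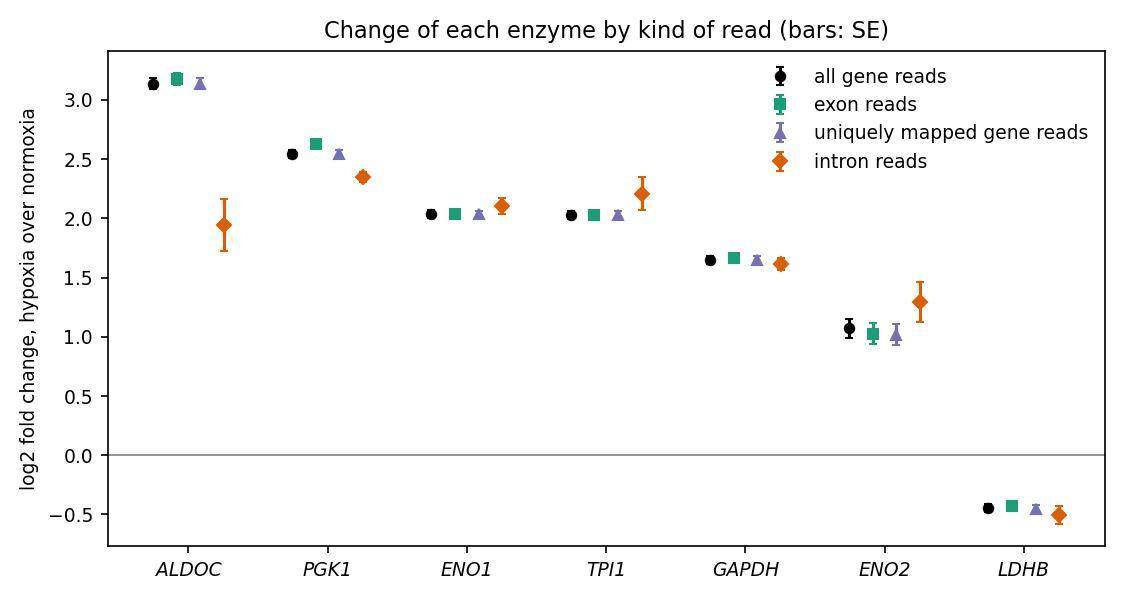
Log2 fold change of hypoxia over normoxia for each enzyme from all gene reads, exon reads, uniquely mapped gene reads and intron reads, with bars for the SE of fits to 3 libraries per group. The widest gap is that of ALDOC, whose exon mark is at 3.18 and whose intron mark is at 1.94, and the exon mark of PGK1 at 2.63 also lies above its intron mark at 2.35.

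Some reads of these genes also map elsewhere. Uniquely mapped reads were 70.9% of GAPDH exon reads in either condition, 74.4% of LDHB exon reads under hypoxia and 74.6% under normoxia. They were at least 99.7% in the other 5 genes. From unique reads only, the changes were 1.65 ± 0.030 for GAPDH and -0.45 ± 0.035 for LDHB. The levels of both genes in TPM, and the order of LDHB against TPI1 and ALDOC, are uncertain for this reason. The kit does not mark the strand, and 3 of the 7 models overlap another gene.

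PGK1 holds TAF9B, a gene for a subunit of transcription initiation complexes, on the other strand within its span. TAF9B went the other way: it had 76, 94 and 79 reads in hypoxia libraries, against 318, 295 and 244 in normoxia libraries (-1.86 ± 0.14, adjusted p = 5.91e-13). The reads assigned to TAF9B were few beside the PGK1 intron reads in every library. Of them, 1.61% were intron reads under hypoxia and 0% under normoxia. Whether reads from TAF9B introns were counted for PGK1 was not tested, so these counts do not bound their share. Their part in the exon excess of PGK1 was not tested either. The ENO2 model shares 8498 bases with C27H12orf57 on the same strand. C27H12orf57 had 276 ± 9.78 CPM under hypoxia and 265 ± 0.42 CPM under normoxia (SD, n = 3 each; 0.05 ± 0.035, adjusted p = 0.208). Its reads were mostly in introns (94.6% under hypoxia and 95.2% under normoxia), and 0.820% of ENO2 intron reads were unique. The intron value of ENO2 is thus uncertain, while its exon reads were all unique and rose by 1.03 ± 0.090. TPI1 shares 11 bases with SPSB2, which had 91 to 128 reads in hypoxia libraries and 128 to 187 in normoxia libraries.

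The ENO1 model has only 5 exons. An unnamed protein-coding model (ENSCAFG00000044872), chosen after its values were seen, lies 4461 bases away on the same strand, from 62308555 to 62314505. It had 2243 ± 68.7 TPM under hypoxia and 561.9 ± 13.1 TPM under normoxia (SD, n = 3 each), a change of 2.03 ± 0.038 (adjusted p = 2.83e-29). The files give it no symbol, and whether its reads belong to ENO1 transcripts was not tested.

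ENO2, TPI1 and GAPDH lie within 353.0 kb of chromosome 27, with 25.3 kb between ENO2 and TPI1 and 310.8 kb between TPI1 and GAPDH. LDHB lies 12.6 Mb away on that chromosome. Of the 19 other tested genes of this stretch, 2 were higher and 7 lower, with a median log2 change of 0.03. These shares can be set beside 24.5% higher and 24.4% lower over all genes. The 2 that were higher were ING4, of a histone acetylation complex (0.25 ± 0.075, adjusted p = 0.00668), and an unnamed non-coding gene (0.19 ± 0.050, adjusted p = 0.00702). Without TMM factors, 1 of the 19 was higher. NOP2, an RNA methyltransferase of ribosome assembly, fell most (-0.66 ± 0.046, adjusted p = 1.06e-13). ACRBP had the largest change (1.63 ± 0.72) and did not pass the test (adjusted p = 0.0710), at a mean below 1 CPM.

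**Figure D5:**
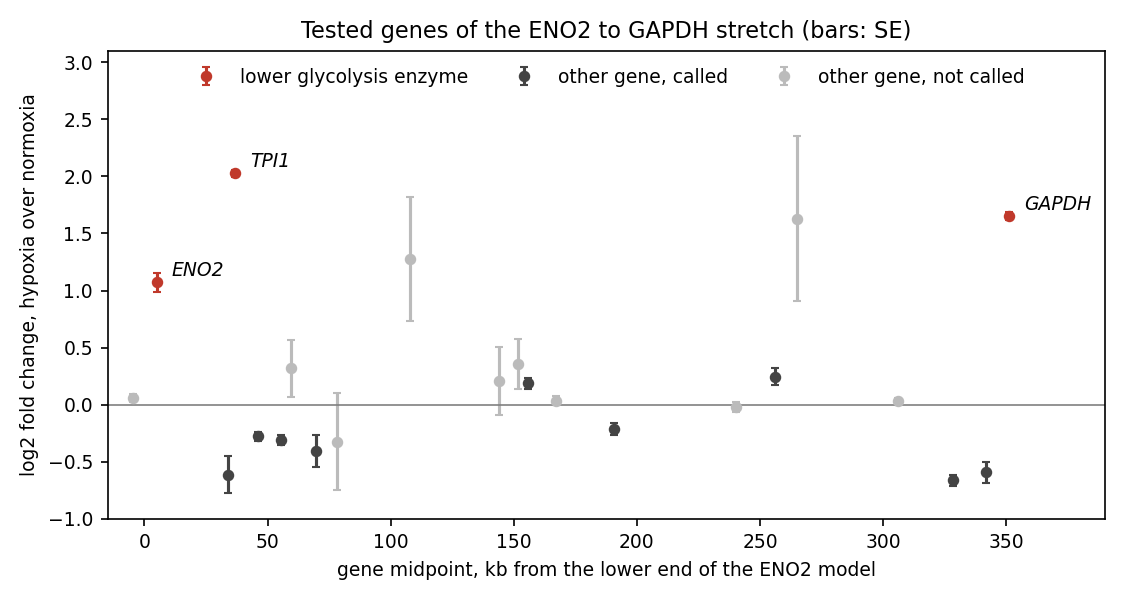
Log2 fold change of the 22 tested genes of the ENO2 to GAPDH stretch of chromosome 27 against distance in kb, with bars for the SE of the fit. The 3 enzymes lie at 1.07, 2.03 and 1.65, while the called genes between them lie between -0.66 and 0.25.

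In a list of 29 other genes of glycolysis, glucose uptake and lactate export, 19 were tested. Of the 19, 13 were higher, 1 was lower and 5 were not called, beside 24.5% higher and 24.4% lower over all genes tested. The median log2 change of the 19 was 1.29. In the alternative fits 11 to 13 were called higher. Those that rose most were the glucose transporters SLC2A3 (3.08 ± 0.047) and SLC2A1 (2.49 ± 0.038) and the hexokinase HK2 (2.46 ± 0.045). The gene that fell was PFKFB2 (-0.33 ± 0.051), a maker of the phosphofructokinase activator fructose 2,6-bisphosphate. Not called were HK3 (-0.16), PFKM (-0.02), PFKFB4 (-0.03), the testis form of GAPDH, GAPDHS (-0.08), and the bisphosphoglycerate mutase BPGM (0.10). The muscle enolase ENO3 was called higher (0.13 ± 0.043, adjusted p = 0.0110), but not without TMM factors (0.07). PKLR, also called higher, had only 88 reads under hypoxia and 39 under normoxia, and its groups overlapped, as did those of ENO3.

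For each enzyme, the gene with the most similar profile over the 6 libraries was found by the Euclidean distance of centred log2 CPM. ENO1 and TPI1 were each nearest to the other (distance 0.050). PGK1 was nearest to SLC2A1 (0.078), ALDOC to SLC2A3 (0.134), GAPDH to the centriole gene CEP89 (0.089), ENO2 to the ion channel gene TPC3 (0.090) and LDHB to UQCRC1, a subunit of respiratory complex III (0.0090). LDHB measured 256 ± 7.23 CPM under hypoxia and 349 ± 8.70 CPM under normoxia, and UQCRC1 averaged 154.9 CPM under hypoxia and 210.6 CPM under normoxia (-0.44 ± 0.037). With 6 libraries in 2 conditions, genes with changes of similar size come out as near.

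Of the 11 melanocyte markers listed, 7 had over 1 TPM in every library, among them SOX10, MITF and DCT, while TYR and TYRP1 were below the filter on low counts. MLANA averaged below 1 CPM and S100B below 1 TPM in either condition. SOX10 (0.40 ± 0.060) and SLC45A2 (0.48 ± 0.048) were called higher, DCT (-0.23 ± 0.059) was lower and the other 6 tested were not called. Over all genes tested, 24.5% were higher and 24.4% lower. The 11 markers summed to 178.0 to 193.8 TPM in hypoxia libraries and 165.0 to 180.2 TPM in normoxia libraries. Since ENO2 and ALDOC are known from the nervous system, neuron markers were listed too. SYP and RBFOX3 were below the filter. MAP2 had 6.45 ± 0.97 CPM under hypoxia and 7.59 ± 0.73 CPM under normoxia and was not called (-0.23 ± 0.14, adjusted p = 0.159). SNAP25 was called higher (0.33 ± 0.11, adjusted p = 0.0109), with 13.9 ± 1.51 CPM under hypoxia and 11.1 ± 1.26 CPM under normoxia (SD, n = 3 each), though its groups overlapped. The 4 markers summed to 5.36 to 7.06 TPM in hypoxia libraries and 3.76 to 6.52 TPM in normoxia libraries. Among 12 markers of leukocytes, endothelium, epithelium and fibroblasts, PTPRC, CD3E and PECAM1 were below the filter. EPCAM was expressed and called lower (-0.15 ± 0.042), and the collagens COL1A1 (0.28 ± 0.036) and COL1A2 (0.40 ± 0.032) were expressed and called higher. The other 4 tested were not called and were low. DCN had 2.51 CPM under hypoxia and 1.89 CPM under normoxia, KRT18 0.95 and 1.62, CD68 1.05 and 0.93, and CDH5 0.98 and 0.54. The 10 markers with a symbol summed to 2987 to 3067 TPM in hypoxia libraries and 2334 to 2471 TPM in normoxia libraries. Most of this was COL1A2, which averaged 2735 TPM under hypoxia and 2108 TPM under normoxia. The part of these markers in the changes of the enzymes was not tested. Introns held 24.6% ± 0.67 of all gene reads under hypoxia and 24.2% ± 0.77 under normoxia (SD, n = 3 each, exact permutation p = 0.6). Mitochondrial genes took 3.27% ± 0.060 of the reads in hypoxia libraries and 4.56% ± 0.054 in normoxia libraries (SD, n = 3 each, exact permutation p = 0.1, the smallest possible), and these shares did not overlap. The part of this difference in the changes of the enzymes was not tested.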

How the data were processed

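Polyadenylated RNA was sequenced as paired reads without strand marking, per the labels' protocols. Each library came as 1 table on CanFam3.1, the build in the submitters' processing notes; the aligner and counter were not given in the sources used here. The deposited counts, per the file headers, are whole reads assigned to a gene and to its introns, exons and exon junctions, as total and unique reads. The deposited TPM are total exon reads over exon length, scaled to the same sum in each library. Groups came from the titles. Total gene reads were filtered with filterByExpr, scaled by TMM and tested with edgeR's quasi-likelihood test, adjusted by Benjamini-Hochberg over 15397 genes at 0.05. SE is the absolute log2 change over the root of F. Exon against intron changes came from 1 fit with library as a block. Single values used exact permutation tests. Fits were tested on simulated data. R 4.3.3 was used with DESeq2 1.42.0, edgeR 4.0.16 and limma 3.58.1, and matplotlib 3.10.9 for figures. Members and lists were chosen with earlier results of these data known. Named were all members, the 3 called genes per list that changed most at a mean of 1 CPM or more, uncalled glycolysis genes, overlapping genes and nearest profiles. Genes named outside that rule were chosen after their values were seen. No sequences were used here, and 1 listed gene is not reported here.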

Additional observations from a re-analysis of the deposited data

How the results depend on the processing

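Each of the 7 enzymes kept its direction and its call in all 112 values from alternatives: other scaling, DESeq2, no filter, exon, intron or unique reads only, limma on log2(TPM + 1), TMM without the enzymes, the replicate block and each library left out. The intron and the TMM alternatives without the enzymes, and all alternatives for the branch point genes, were chosen after seeing the data. Only the intron change of ALDOC (1.94) lay over 1.5-fold from the value from gene reads. From intron reads only, 2173 genes were lower (fewer genes were tested, 13858) and 5 branch point genes were called. The exon minus intron change of ENO2, which was not called, took the other sign from unique reads (0.16, adjusted p = 0.986 by edgeR), where almost no intron reads were left. That of GAPDH, also not called, ranged from -0.025 to 0.11 with libraries left out, and was negative without normoxia replicate 3; the cause was not tested. In log2 TPM ratios, chosen after seeing the data, unique exon reads per kilobase put LDHB below TPI1 under normoxia (-0.34, against 0.079 in deposited TPM; 0.069 to 0.086 with libraries left out) and below ALDOC under hypoxia (-0.056, against 0.37), and LDHB over PGK1 under normoxia fell to 0.13, against 0.55. With libraries left out, 5 to 9 of the common RT-qPCR reference genes were called, the fewest without hypoxia replicate 2, against 8 with all libraries. Same-numbered libraries did not deviate together (correlations of -0.087, -0.013 and -0.031), and none of the 3 hypoxia libraries correlated best with its own number. With the replicate block 3769 genes were higher and 3793 lower. Depth limits ENO2, with 331 to 919 reads per library, and the intron reads of ALDOC.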

Other observations

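Genes listed around the branch points of glycolysis were more often lower than higher under hypoxia. In this list of 20 genes, 12 were tested: 1 was higher, 7 were lower and 4 were not called. The list was chosen with earlier results of these data known, so these counts only describe the listed genes. The median log2 change was -0.18, beside 24.5% higher and 24.4% lower over all genes tested. Most listed genes share a substrate or product with the enzymes, run the pathway backwards or use pyruvate. Cofactors such as NAD left aside, the tested genes TIGAR, ADPGK (-0.12), GOT1, GOT2 and MDH1 do not. MDH1 (-0.07) was not called, and each of the other 4 was lower. The other lower genes were GPD1L (-0.31), MPC2 (-0.27) and PDHA1 (-0.23). Without TMM factors 9 were lower. The largest falls were those of TIGAR, which degrades fructose 2,6-bisphosphate (-0.62 ± 0.072, adjusted p = 8.72e-09), and of the aspartate aminotransferases GOT1 (-0.46 ± 0.062, adjusted p = 1.43e-07) and GOT2 (-0.45 ± 0.035, adjusted p = 1.51e-12), which take part in the shuttle of reducing equivalents into mitochondria. GPD2, the mitochondrial glycerol-3-phosphate dehydrogenase, was the gene that rose (0.33 ± 0.051, adjusted p = 2.39e-06). FBP1, FBP2 and PCK1, enzymes of gluconeogenesis, were below the filter, with at most 8 reads over the 3 libraries of either condition.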
